A study of Xenopus tropicalis with 8 samples.

Results

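The genes described here are splicing factors and RNA helicases of the western clawed frog, Xenopus tropicalis, chosen by symbol: those starting with ddx, dhx, srsf, sf3, snrp, snrn, hnrn, prpf, rbm, cpsf or lsm. The RefSeq gene table lists 182 such genes, 54 of them were matched to a probe of the array, and 36 passed the detection filter, among 3436 named genes and 20289 probes tested. The study exposed embryos during development to Disperse Yellow 7 (DY7), an azo dye used to colour synthetic textiles, and asked how gene networks respond. The samples were 4 groups of embryos exposed to 887 ppm of DY7 and 4 control groups whose treatment label reads none, all given as stages 12 to 46 with no vehicle, clutch or strain. Total RNA of each was labelled with Cy3 and hybridised to a single-colour Agilent array. Because nothing in the labels says that the samples came from separate clutches, p-values measure the spread between these samples, which may be partly technical.

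Splicing removes introns from pre-messenger RNA. The spliceosome that does this is assembled anew on each intron from small nuclear ribonucleoprotein particles (snRNPs): U1 marks the 5′ splice site, U2 the branch site, and U4, U5 and U6 join as a tri-snRNP that is rearranged into the catalytic centre. DEAD-box (ddx) and DEAH-box (dhx) proteins use ATP to remodel RNA at many of these steps and also in ribosome assembly, RNA decay and antiviral sensing, so the symbol prefixes gather proteins with several jobs. Many hnRNP and some RNA-binding motif (rbm) proteins coat transcripts and steer the choice of splice sites, while other rbm proteins have other jobs.

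The arrays differed in brightness. The 75th percentile of probe signal was 126 to 202 on the DY7 arrays and 162 to 327 on the control arrays, and 64.0% to 73.5% of probes lay well above background on DY7 arrays against 51.6% to 75.9% on control arrays. The lowest share belonged to control 2, on which 33 of the 36 genes were well above background; on each of the other 7 arrays all 36 were. Each array lay on 1 of 2 slides, with replicates 1 and 2 of both groups on slide 1 and replicates 3 and 4 on slide 2. Neural (sox2, nes), liver and gut (alb, apob, serpina1) and blood (slc4a1) genes lay well above background on all 8 arrays. None of the 9 muscle and 4 lens symbols drawn up as markers was measured, which does not show that these tissues gave no signal. Lens crystallin genes under other symbols, such as cryga.1, were among the genes tested. In whole embryos, fewer cells of a type and less RNA per cell cannot be told apart.

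Of the 36 genes, 3 were higher and 2 were lower in DY7 embryos. The rises were those of ddx24, a DEAD-box helicase, hnrnpul2, an hnRNP U-like protein, and prpf8, the scaffold of the spliceosome's catalytic centre; the falls were those of dhx58, an antiviral RNA sensor, and hnrnpr, an hnRNP protein. The 5 calls make up 13.9% of the genes, against 14.1% of all probes tested (9.06% higher and 5.07% lower), so the share of changed genes was close to that of the whole array. At an unadjusted p under 0.05 there were 9 of 36 genes, against 33.6% of all probes. Their median log2 fold change was 0.06, like the 0.06 of all probes, and 21 of 36 (58.3%) lay above 0, against 56.8% of all probes. With this scaling none of the 36 differed 2-fold, and 2 (hnrnpul2 and dhx58) differed by more than 1.5-fold, against 2545 of the 20289 probes. The fall of dhx58 passed 2-fold with quantile normalization (-1.01), median scaling (-1.001) and no scaling (-1.36), and the difference in hnrnpr did so with no scaling. A call here means a Benjamini-Hochberg adjusted p under 0.05 in limma's fit over all 20289 probes, and a log2 fold change is the mean of the 4 DY7 arrays minus that of the 4 control arrays, each array set to 0 at its 75th percentile.

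The direction of small changes depended on that scaling. Of the called probes 64.1% were higher in DY7, against 43.8% when arrays were scaled to their median and 4.73% with no scaling, under which the median of all probes lay at -0.42. The number of the 36 genes above 0 was 21, but 16 with median scaling, 18 with quantile normalization and 3 with no scaling. With the replicate number as a block, which pairs same-numbered samples, 7 of 36 genes were called (19.4%, against 25.3% of all probes). These were 3 higher (16% of all probes) and 4 lower (9.25% of all probes): the same 5, plus snrnp200 and dhx40, both lower. With no scaling, dhx58 alone of the 5 kept its call (hnrnpr at -1.02, adjusted p = 0.0589), and with no filter on dim probes the 3 rises were not called.

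**Figure D1:**
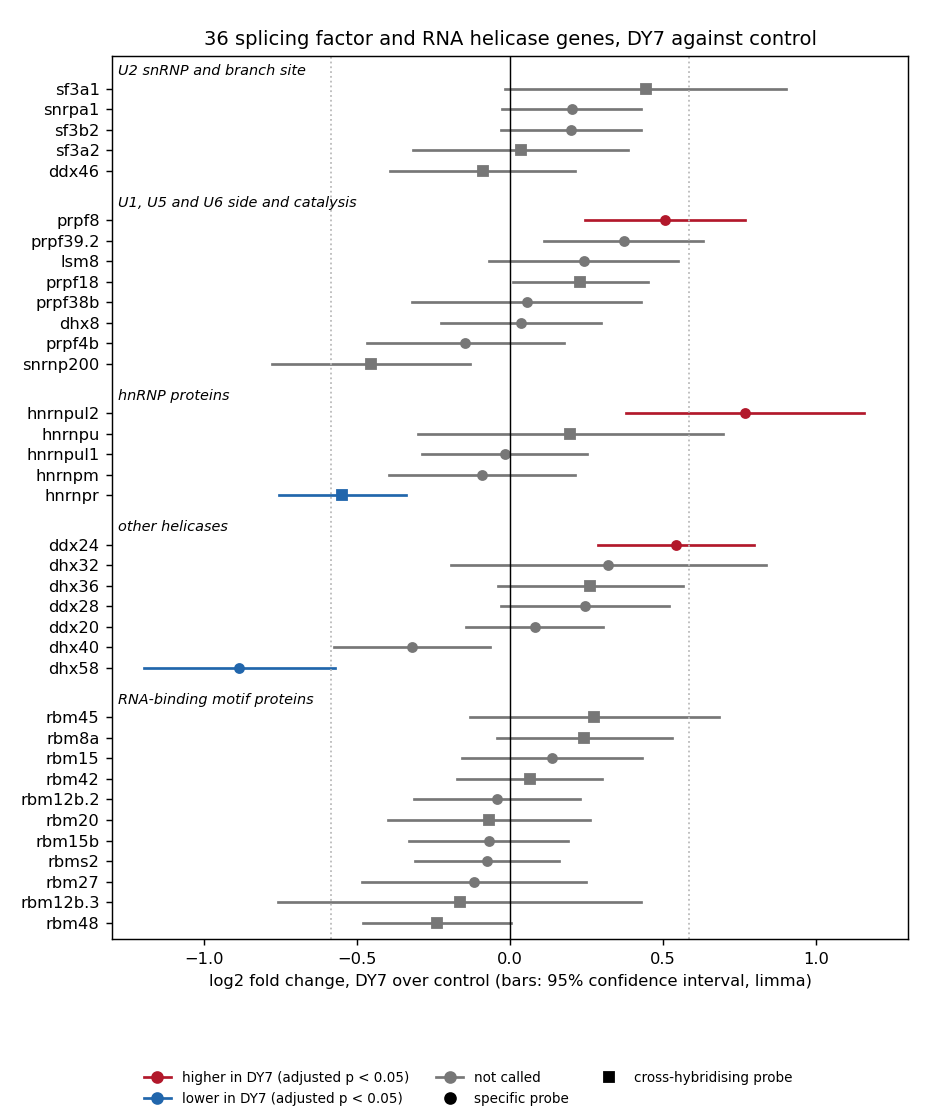
Log2 fold change of DY7 over control (horizontal axis) for the 36 genes, with 95% confidence intervals from limma, grouped by role; red and blue mark genes called higher and lower, grey those not called, circles specific and squares cross-hybridising probes, dotted lines 1.5-fold. The 5 called genes run from -0.88 (dhx58) to 0.77 (hnrnpul2). No gene of the U2 or RNA-binding motif groups is called, against 14.1% of all probes tested.

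Probe design limits what a value stands for. The probe names mark 22 of the 36 probes as specific and 14 as cross-hybridising, which may read related transcripts as well. On specific probes 4 of 22 genes were called (3 higher, 1 lower), and on cross-hybridising probes 1 of 14, the fall of hnrnpr, against 14.1% of all probes; the difference between the kinds of probe was not tested.

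The 5 measured genes of the U2 snRNP and of branch site recognition gave no call, against 14.1% of all probes called. The groups by role hold few genes, and differences between their counts of calls were not tested. The genes sf3a1 and sf3a2 encode subunits of SF3A, and sf3b2 a subunit of SF3B, complexes that hold U2 on the branch site. The sf3a1 probe is cross-hybridising. The scaled log2 signal it gave was -0.80, -0.43, -0.47 and -1.38 on DY7 arrays 1 to 4, against -1.21, -1.20, -1.01 and -1.43 on control arrays 1 to 4. DY7 arrays 1, 2 and 3 lay above all controls and DY7 4 lay among them, so the difference of 0.44 ± 0.20 (SE, n = 4 arrays per group) had an adjusted p of 0.160 by limma. Without DY7 4 it was 0.65 and was called (adjusted p = 0.0253). The log2 fold change of sf3b2 was 0.20 ± 0.10 and that of sf3a2 0.03 ± 0.16. The sf3a2 probe is cross-hybridising too, and 3 of 4 control arrays passed its detection flag.

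The fold change of snrpa1, the U2 A′ protein, was just as small as that of sf3b2, yet its groups did not overlap. It read 2.78, 2.55, 2.53 and 2.71 on the DY7 arrays, against 2.46, 2.51, 2.31 and 2.49 on the control arrays. The gap between the lowest DY7 and the highest control array was narrow, and the difference of 0.20 ± 0.10 gave an adjusted p of 0.191. The helicase gene ddx46, whose product (Prp5 in yeast) helps U2 pair with the branch site, stood at -0.09 ± 0.13 on a cross-hybridising probe. The 95% intervals of 4 of these 5 genes lay within 1.5-fold of no change, the exception being sf3a1.

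Among 8 genes that act with U1, U5 or U6 or in catalysis, 1 was called (12.5%, against 14.1% of all probes), prpf8. Its protein surrounds the catalytic RNAs as the core of U5. Its log2 signal was -0.49, -0.46, -0.51 and -0.63 on DY7 arrays 1 to 4, against -1.26, -0.97, -0.80 and -1.09 on control arrays 1 to 4. Every DY7 array lay above every control array, and the controls were more spread out (SD 0.20) than the DY7 arrays (SD 0.08). The log2 fold change was 0.51 ± 0.12, or 1.42-fold (95% interval 0.25 to 0.77, adjusted p = 0.0236), and the rise in the 4 same-numbered pairs was 0.29 to 0.77. The call was lost with median scaling (0.39, adjusted p = 0.0699) and when DY7 1, DY7 2, DY7 3, control 1 or control 4 was left out (adjusted p 0.0501 to 0.0723). It was also lost with no scaling, with no filter on dim probes and within each slide. The change shrank to 0.29 with normexp background correction, which added an offset of 50 and was followed by quantile normalization. All normexp values given here include these steps, and which of them shrank the change was not tested. The lowest estimate of any setting, 0.03, came with no scaling, which leaves the differences in brightness between arrays in place.

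The gene snrnp200 encodes Brr2, the U5 helicase that unwinds U4 from U6 and sits on the prpf8 protein. Its cross-hybridising probe read -0.04, -0.22, 0.02 and 0.03 on the DY7 arrays, against 0.57, 0.00, 0.60 and 0.43 on the control arrays. Control 2 lay among the DY7 arrays and the other 3 controls lay above them. The difference of -0.46 ± 0.14 missed the threshold (adjusted p = 0.0625) and passed it with the replicate block (adjusted p = 0.0252, lower in 4 of 4 pairs), with median scaling (-0.57, adjusted p = 0.0293) and without control 2 (-0.59, adjusted p = 0.0123), whereas normexp reduced it to -0.26 (adjusted p = 0.303). The estimates for prpf8 and snrnp200 had opposite signs, 0.51 and -0.46; the difference between them was not tested.

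The gene prpf39.2 is 1 of the frog's copies of PRPF39, a U1-associated factor in yeast. It read -1.98, -1.97, -2.27 and -2.07 on the DY7 arrays, against -2.62, -2.48, -2.24 and -2.43 on the control arrays. DY7 3 lay just below control 3, and the other arrays of the groups were apart. The difference was 0.37 ± 0.12 (adjusted p = 0.0608), and it passed only without control 3 (adjusted p = 0.0452) or among probes well above background on all 8 arrays (adjusted p = 0.0452), while quantile normalization reduced it to 0.24 and normexp to 0.09.

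The rest of this group changed less. The groups did not overlap for prpf18, a factor of the second catalytic step, at 0.23 ± 0.10 on a cross-hybridising probe: it read -0.79 to -0.53 on the DY7 arrays and -1.01 to -0.82 on the control arrays (adjusted p = 0.138). The values were 0.24 ± 0.14 for lsm8, a subunit of the ring that binds U6, 0.05 ± 0.17 for prpf38b, 0.04 ± 0.12 for dhx8, the helicase that releases spliced RNA, and -0.15 ± 0.14 for the kinase gene prpf4b. Intervals within 1.5-fold of no change were found for 5 of the 7 genes that were not called, with snrnp200 and prpf39.2 as the exceptions.

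**Figure D2:**
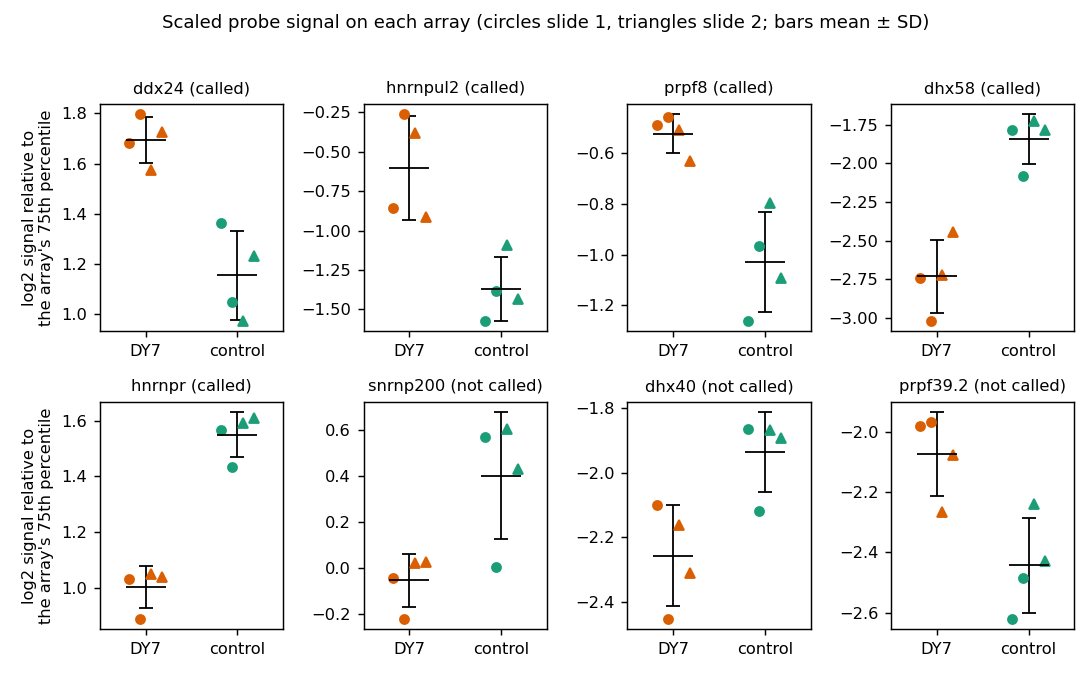
Log2 signal relative to the array's 75th percentile (vertical axes, each panel with its own range) of the 5 called genes and of snrnp200, dhx40 and prpf39.2, by group; points are arrays (circles slide 1, triangles slide 2), lines the mean and bars the SD of 4 arrays. The groups are apart in all 5 called genes, while 1 control array of snrnp200, at 0.00, lies among the DY7 arrays.

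Of 5 hnRNP genes, 1 rose and 1 fell, against 9.06% of all probes called higher and 5.07% called lower. The rise was that of hnrnpul2, the largest among the 36 genes. On DY7 arrays 1 to 4 it read -0.86, -0.26, -0.38 and -0.91, against -1.57, -1.38, -1.09 and -1.43 on control arrays 1 to 4. The groups did not overlap, but the DY7 arrays fell into a higher pair (2 and 3) and a lower pair (1 and 4) close to control 3. The log2 fold change was 0.77 ± 0.17, or 1.70-fold (95% interval 0.38 to 1.16, adjusted p = 0.0224), and it was 0.92 within slide 1 and 0.62 within slide 2. The call did not hold without DY7 2, DY7 3, control 1 or control 4 (adjusted p 0.0599 to 0.0681). Nor did it hold with no scaling, with no filter on dim probes or within each slide. With normexp correction the change was 0.39 (adjusted p = 0.0466).

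The fall of hnrnpr was the most even difference of the 36 genes across pairs. It read 1.03, 0.89, 1.05 and 1.04 on the DY7 arrays, against 1.57, 1.43, 1.59 and 1.61 on the control arrays. The SD was 0.08 in each group, and the same-numbered pairs differed by -0.57 to -0.54. The log2 fold change was -0.55 ± 0.09, or 1.46-fold lower (95% interval -0.75 to -0.34, adjusted p = 0.00833), and the call held whichever array was left out (adjusted p 0.00904 to 0.0348). The call was lost with no scaling and within each slide. The probe is cross-hybridising. The transcript of syncrip, the closest relative of hnrnpr, was read by another cross-hybridising probe at -0.03 ± 0.14, and which transcripts each probe reads was not tested.

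The other 3 hnRNP genes were not called. The splicing regulator gene hnrnpm stood at -0.09 ± 0.14 and hnrnpul1 at -0.02 ± 0.12, both with intervals within 1.5-fold. The gene of hnRNP U, a protein of the nuclear scaffold, stood at 0.20 ± 0.22, with arrays from -3.03 to -2.29 in DY7 and from -3.51 to -2.70 in control. That gene, hnrnpu, was read by a cross-hybridising probe and was not well above background on control 2, its lowest array.

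Of 7 helicases that are not core parts of the spliceosome, 1 rose and 1 fell (9.06% and 5.07% of all probes). The rise was that of ddx24, whose yeast relative Mak5 acts in assembly of the large ribosomal subunit. It read 1.68, 1.80, 1.58 and 1.72 on DY7 arrays 1 to 4, against 1.36, 1.04, 0.97 and 1.23 on control arrays 1 to 4. The lowest DY7 array lay above the highest control, so all 4 pairs rose, by 0.32 to 0.75. The log2 fold change was 0.54 ± 0.11, or 1.46-fold (95% interval 0.29 to 0.80, adjusted p = 0.0180), with 0.53 within slide 1 and 0.55 within slide 2. The call was lost with median scaling (0.43, adjusted p = 0.0864) and without DY7 2 (adjusted p = 0.0540). It was also lost with no scaling, with no filter on dim probes and within each slide. The lowest estimate of any setting, 0.07, came with no scaling, which leaves the differences in brightness between arrays in place.

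The largest change of the 36 genes in either direction was the fall of dhx58. Its protein, LGP2, belongs to the RIG-I-like receptors that bind viral RNA in the cytoplasm, and is not a splicing factor. The gene read -2.74, -3.02, -2.72 and -2.44 on the DY7 arrays, against -1.79, -2.08, -1.73 and -1.78 on the control arrays. The highest DY7 array lay below the lowest control, and control 2 lay below the other controls. The log2 fold change was -0.88 ± 0.14, or 1.85-fold lower (95% interval -1.20 to -0.57, adjusted p = 0.00718), with differences of -0.99 to -0.66 in the 4 pairs. The call held under every scaling tried and without any 1 array (adjusted p 0.00616 to 0.0263), although with normexp the value was -0.34 (adjusted p = 0.0141). Within each slide the call was lost. The gene for RIG-I itself, ddx58, was not well above background on any of the 8 arrays and was not compared. Without dhx58 the list held 35 genes and 4 calls (11.4%, against 14.1% of all probes), 3 higher and 1 lower.

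The helicase gene dhx40 was lower in each of the 4 pairs, by -0.42 to -0.24, without passing the main threshold. It read -2.10, -2.45, -2.16 and -2.31 on the DY7 arrays, against -1.86, -2.12, -1.87 and -1.89 on the control arrays. Control 2, at -2.12, was the only control that reached the DY7 values. The difference was -0.32 ± 0.11 (adjusted p = 0.0849, or 0.0315 with the replicate block, 0.0352 with quantile normalization and 0.0494 without control 2).

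The remaining helicases were not called. The value was 0.26 ± 0.14 for dhx36, which unwinds G-quadruplexes, on a cross-hybridising probe. It was 0.24 ± 0.12 for ddx28, which acts in assembly of the mitochondrial ribosome. For ddx20, a partner of the SMN protein in snRNP assembly, it was 0.08 ± 0.10. The gene dhx32 had the widest DY7 range of these 7, with -3.72 on DY7 1 and -3.00 to -2.72 on the others, against -3.63 to -3.11 on the control arrays (0.32 ± 0.23, adjusted p = 0.349); it was not well above background on control 2.

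None of the 11 RNA-binding motif genes was called, against 14.1% of all probes. The log2 fold changes of these genes ran from -0.24 to 0.27 with a median of -0.07, against 0.06 over all probes. The groups were apart for 1 of them, rbm48, which encodes a protein of the minor spliceosome. Its cross-hybridising probe read 2.29, 2.63, 2.56 and 2.61 on the DY7 arrays, against 2.87, 2.74, 2.67 and 2.78 on the control arrays. The DY7 arrays other than DY7 1 lay just under the lowest control, and the difference of -0.24 ± 0.11 had an adjusted p of 0.152. The 2 genes of the RNA adenosine methylation complex, rbm15 and rbm15b, stood at 0.14 ± 0.13 and -0.07 ± 0.12. The exon junction gene rbm8a stood at 0.24 ± 0.13, and rbm20, which controls splicing of titin in heart muscle, at -0.07 ± 0.15. The probes of rbm8a and rbm20 are cross-hybridising.

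The largest estimate of this group belonged to rbm45, at 0.27 ± 0.18, which was also the only member of the 36 with a second tested probe. That probe gave 0.47 ± 0.17 (adjusted p = 0.0993), so neither was called. Both rbm45 probes are cross-hybridising. The other members were rbm42 at 0.06 ± 0.11, rbm12b.2 at -0.04 ± 0.12, rbms2 at -0.08 ± 0.11, rbm27 at -0.12 ± 0.16 and rbm12b.3 at -0.17 ± 0.26. Of these, rbm42 and rbm12b.3 were read by cross-hybridising probes. The interval lay within 1.5-fold of no change for 9 of the 11 genes, all but rbm45 and rbm12b.3.

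Over the whole list, 24 of the 31 genes that were not called had 95% intervals within 1.5-fold of no change. The same held for 10836 of the 17422 probes that were not called. The exceptions among the 31 genes were dhx32, sf3a1, snrnp200, hnrnpu, prpf39.2, rbm12b.3 and rbm45, for which a change of that size remains within the interval. The groups did not overlap for 8 of 36 genes (22.2%, against 21.6% of all probes): the 5 called genes, prpf18, snrpa1 and rbm48. Differences had the same sign in all 4 pairs for 14 of 36 genes and on both slides for 27 of 36. Both counts include the 8 genes without overlap, for which the sign is fixed. The shares over all probes were not computed, so these counts are not read as particular to the list. Within a single slide, with 2 arrays against 2, no gene of the list passed in limma (7 on slide 1 and 6 on slide 2 had an unadjusted p under 0.05, against 3450 and 3308 of all 20289 probes). The 5 called genes kept their direction on both slides, which groups without overlap make certain.

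**Figure D3:**
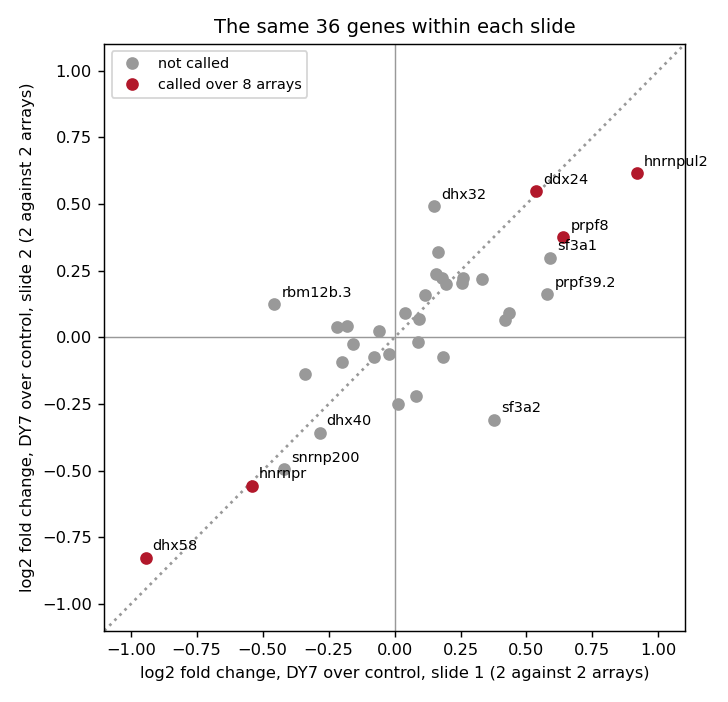
Log2 fold change of DY7 over control within slide 1 (horizontal axis) and slide 2 (vertical axis) for the 36 genes, 2 arrays against 2 on each; the dotted line marks equal change and red the 5 genes called over all 8 arrays. Of the called genes, ddx24 (0.53 and 0.55) and hnrnpr (-0.54 and -0.56) lie close to that line. The values of hnrnpul2 (0.92 and 0.62) and prpf8 (0.64 and 0.37) were larger on slide 1, and dhx58 stands at -0.94 and -0.83. The uncalled sf3a2, at 0.38 and -0.31, changes sign.

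Single arrays stood lowest in their group for unequal numbers of genes. DY7 2 was the lowest of the 4 DY7 arrays for 13 of 36 genes (36.1%), against 27% of all probes tested, and DY7 4 for 5 of 36 (13.9%), against 23.8%. Control 2 was the lowest of the 4 control arrays for 17 of 36 genes (47.2%), against 49.6% of all probes tested. The median SD over the 4 arrays was 0.17 in DY7 and 0.18 in control, and the control SD was the larger in 18 of 36 genes.

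**Figure D4:**
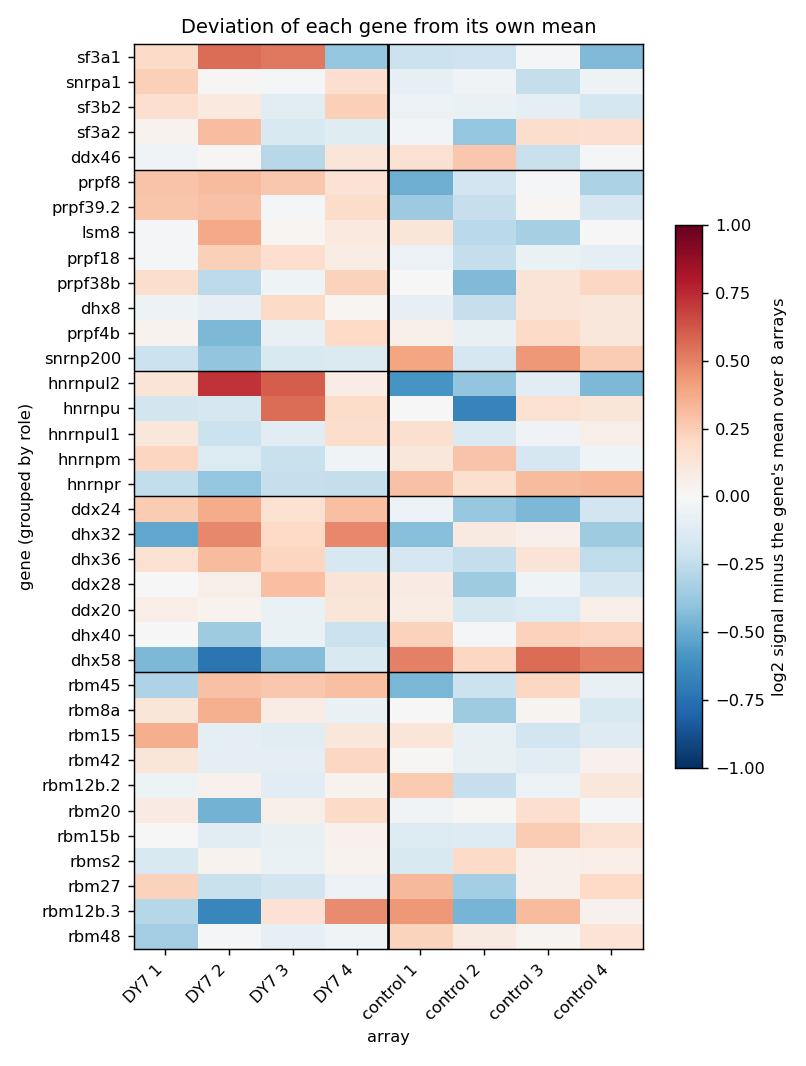
Log2 signal of each of the 36 genes (rows, grouped by role) on each array (columns, DY7 to the left of control) minus the gene's mean over 8 arrays; red is above and blue below that mean. The rows of dhx58 and hnrnpr are blue in DY7 and red in control, those of prpf8 and ddx24 the reverse, with control 3 of prpf8 and control 1 of ddx24 near the mean, and most other rows show no block by group.

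Other RNA processing genes, named outside the prefixes, were described in the same way. A list of 157 symbols was drawn up, and 28 were measured, of which 4 rose and 1 fell (17.9%, against 14.1% of all probes), with a median log2 fold change of 0.10. An unadjusted p under 0.05 was found for 12 of the 28, against 33.6% of all probes; whether this list differs from the 36 genes was not tested. The rises were those of thoc1, a subunit of the THO complex of RNA export, on a cross-hybridising probe (0.84 ± 0.20, adjusted p = 0.0266), and usp39, a tri-snRNP factor (0.65 ± 0.14, adjusted p = 0.0180). The other rises were those of exosc3, a subunit of the RNA exosome (0.47 ± 0.11, adjusted p = 0.0266), and gemin4, a partner of SMN and ddx20 (0.43 ± 0.12, adjusted p = 0.0422). The fall was that of mbnl2, a muscleblind regulator of alternative splicing (-0.52 ± 0.12, adjusted p = 0.0211).

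The usp39 protein joins the same tri-snRNP as prpf8 and snrnp200. It read -0.25, -0.24, 0.11 and -0.30 on the DY7 arrays, against -0.96, -0.94, -0.52 and -0.85 on the control arrays. The groups were apart. The fall of mbnl2 was also free of overlap, with 0.38, 0.15, 0.14 and 0.52 on the DY7 arrays, against 0.81, 0.75, 0.77 and 0.96 on the control arrays. The relatives mbnl1 and mbnl3 stood at -0.09 ± 0.11 and 0.10 ± 0.11. With the replicate block, 10 of the 28 were called, against 25.3% of all probes: 7 higher (16% of all probes) and 3 lower (9.25% of all probes).

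Marker genes of other kinds moved between the groups as well. Of 3 liver and gut genes 2 rose, apob and serpina1, against 9.06% of all probes called higher. The gene alb was not called (0.23, adjusted p = 0.314 by limma). The summed scaled signal of all 3 was 120 to 146 on DY7 arrays and 77.2 to 109 on control arrays. The blood gene slc4a1 was not called, at 2.91 to 3.67 in DY7 and 2.15 to 3.07 in control. The 1 epidermal gene measured of 5, krt78.6, fell, against 5.07% of all probes called lower. Its scaled signal was 0.79 to 0.935 in DY7 and 1.1 to 1.2 in control. Related keratin genes outside the list were not called: krt78.1 (0.02, adjusted p = 0.938 by limma), krt78.3 (-0.15, adjusted p = 0.254) and krt62 (-0.22, adjusted p = 0.153). Neither of the neural genes was called, at a sum of 6.98 to 8.08 in DY7 and 8.48 to 9.79 in control. Of 23 symbols of dividing cells, 6 were measured, all 6 well above background on all 8 arrays. Of these 6, 4 rose and none fell, against 9.06% of all probes called higher and 5.07% called lower. The summed scaled signal of the 6 was 5.41 to 5.84 on DY7 arrays and 3.73 to 4.32 on control arrays. The marker lists were drawn up with earlier results of these data known, so these counts are not read as a result about cell types. The part of these markers in the changes of the splicing and helicase genes was not tested.

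The 18 genes on the array that did not pass the filter were not compared. Of these, ddx21, ddx42, ddx54, ddx58, dhx9, dhx38, hnrnpa2b1 and lsm2 were not well above background on any array. Another 2 were split by group: ddx47 was above background on 0 of 4 DY7 arrays and 3 of 4 control arrays, and hnrnpab on 2 of 4 DY7 arrays and 0 of 4 control arrays. The others (ddx41, ddx51, dhx33, dhx37, lsm7, rbm12b.1, rbms3 and sf3b3) were above background on 2 or 3 arrays of each group. No srsf or cpsf gene was matched to a probe here, so genes of those prefixes were not analysed. A gene of the cleavage and polyadenylation complex from the other RNA processing list, fip1l1, was measured on a cross-hybridising probe. It stood at -0.35 ± 0.12 (adjusted p = 0.071 by limma, or 0.033 with the replicate block).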

How the data were processed

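The authors' deposited files give each spot's linear intensity, made with Agilent Feature Extraction 10.7.3.1 (slide 1) and 10.7.1.1 (slide 2), per the file headers. The processed signal of those files was used as deposited. The deposited series matrix holds log2 values of the same spots in the same direction (correlation with log2 intensity 0.986 or higher, column medians 5.39 to 5.53); how it was centred is not stated in the sources used here. The flags for signal well above background and for outliers are 0 or 1 per spot, per the file headers.

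Of 45220 spots, 1417 controls and outlier-flagged spots were left out, and replicate spots were averaged as log2 values. Each array was scaled to its 75th percentile. Probes well above background on all 4 arrays of a group were kept (20321), of which 32 with a missing array were dropped. No probe spot was saturated. Transcript accessions without versions were matched to RefSeq genes of UCB_Xtro_10.0, for names only, which named 5891 of 32899 probes. A gene was read by its brightest probe. Groups were compared with limma 3.58.1 (two-sided) in R 4.3.3 with the package data.table (version 1.17.8), tested on simulated data. The simulated arrays were drawn independently, without slides or pairs, so they do not check how the unpaired fit behaves with such structure. The number of arrays limits the precision.

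Deviations from group means correlated at 0.306, 0.107, 0.455 and 0.449 between same-numbered samples 1 to 4. The main fit left the samples unpaired, and the replicate block took the numbers as pairs as an alternative. Same-numbered samples also shared a slide, and whether the correlations come from pairing or from the slide was not tested. The genes and lists were chosen with earlier results of these data known; the rule for named genes took the 14 largest called rises, the 10 largest called falls, the called gene of smallest p and the brightest gene of each prefix, and called genes of the other RNA processing list, and the text adds every other member. Alternatives are listed in the closing section. Probe and protein sequences were not used here.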

Additional observations from a re-analysis of the deposited data

Results flagged for a closer look

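A single array stood far from the other 3 of its group for 4 of the 72 gene and group combinations, where chance would set apart about 1 in 20. On DY7 1, rbm45 read -2.47, against -1.89 to -1.86 on the other DY7 arrays. On DY7 2, hnrnpr read 0.89, against 1.03 to 1.05 on the other DY7 arrays. On control 2, where 51.6% of probes lay above background, dhx40 read -2.12, against -1.89 to -1.86 on the other controls. On the same array, dhx58 read -2.08, against -1.79 to -1.73 on the other controls.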

How the results depend on the processing

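Over all probes, 2867 were called, against 719 with no scaling, 1779 with normexp, 1794 with normexp after extreme local backgrounds were repaired, 562 with no filter on dim probes, 6 within slide 1, 0 within slide 2 (limma; 3308 with an unadjusted p under 0.05) and 5124 with the replicate block; leaving out 1 array gave 1091 to 3323. The median of the 36 genes moved to -0.058 with median scaling and to -0.414 with no scaling, beside -0.059 and -0.42 for all probes. Higher calls among the 36 genes numbered 3, but 1 with median scaling and 0 with no scaling, with no filter and within slide 1 or slide 2 (limma; 0, 4, 5 and 3 with an unadjusted p under 0.05), and 0 to 4 with 1 array left out (0 without DY7 2, 1 without DY7 3, control 1 or control 4). Lower calls numbered 2, but 1 with no scaling, on specific probes or without dhx58, 4 with the deposited matrix or the replicate block, 0 within slide 1 or slide 2, and 2 to 4 with 1 array left out (4 without control 2). Over 22 settings, dhx58 kept its call in 20, hnrnpr in 19, ddx24 in 16, hnrnpul2 in 14 and prpf8 in 12, and none of the 5 changed sign. The cause of these shifts was not tested. A single slide holds fewer arrays, and leaving out the scaling moved every log2 fold change by the same amount. The scanner files lack the mean spot signal, so normexp used the median spot signal, with an offset of 50 and quantile normalization after it. The use of the median spot signal, the repair and the omission of dhx58 were chosen after seeing the data. The replicate block changed no other call in the list than those of snrnp200 and dhx40.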
